A study of Mus musculus with 6 samples.

Results

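Peaks of C/EBPα, IRF8 and JUNB at the genes of the AP-1 family were mapped in macrophages grown from mouse bone marrow (BMDMs) by ChIP-seq, in which chromatin bound by a factor is precipitated with an antibody and sequenced. The family was taken as 10 genes: Jun, Junb, Jund, Fos, Fosb, Fosl1, Fosl2, Batf, Batf3 and Atf3. A peak belonged to one of them when the deposited annotation gave that gene as the one with the nearest transcription start site (TSS). This held for 260 of the 134964 peaks in the 6 lists. The number per gene ran from 63 at Jun, 49 at Fos and 38 at Fosl2 to 8 at Junb, 4 at Jund and 2 at Fosl1.

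Marrow cells came from wild-type mice of 8 to 12 weeks and grew for 6 days in L929 supernatant, a source of macrophage colony-stimulating factor. The control cells received no IL-4, and the others received 20 ng/ml of it for 1 h. The strains of the study have a C57BL/6 background. Each antibody was used on 1 control and 1 IL-4 sample, so no value below has replicates, no spread between samples can be given and no test was run. Whether cells of several animals were pooled is not given in the sources used here. The lists hold peaks and no transcript levels, so the labelled cell type could not be checked against marker expression.

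AP-1 is a dimer of basic leucine zipper proteins that binds the site TGACTCA or TGAGTCA. JUN proteins pair with one another or with FOS proteins, whereas FOS proteins need a JUN partner. BATF proteins also pair with JUN proteins and can bind DNA together with IRF4 or IRF8. ATF3 belongs to the ATF and CREB branch, whose members bind the CRE-type site TGACGTCA. Many of these genes are immediate early genes of macrophages, switched on within minutes of a signal, and products of the family can bind the regulatory regions of family genes. JUNB is at once a member of the family and the protein precipitated here, so its peak at Junb is a case of a factor at its own gene.

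The sequences under the JUNB peaks at these genes are printed because they show where the letters of an AP-1 site occur. Each is 200 bp around the peak centre, on the plus strand of GRCm38, for the highest-scoring JUNB peak of each gene. Distances are from the TSS and negative upstream. The Fos +45.9 kb peak was added after its values were seen. Only 30 bases are shown for Jund, since the peak lies in an annotated untranslated region. Capitals mark AP-1 sites (TGACTCA or TGAGTCA), the CRE-type site (TGACGTCA) and C/EBP sites (TTGCNNAA), searched on both strands.
Junb +3.0 kb, chr8:84975619-84975818: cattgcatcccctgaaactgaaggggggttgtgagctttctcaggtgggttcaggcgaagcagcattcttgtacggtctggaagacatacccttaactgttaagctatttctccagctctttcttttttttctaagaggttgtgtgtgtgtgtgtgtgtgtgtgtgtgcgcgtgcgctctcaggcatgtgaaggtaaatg
Jund, 30 bases around the CRE-type site, chr8:70698724-70698753: ccccacccccaTGACGTCAacccacaatgc
Jun −53.9 kb, chr4:95106029-95106228: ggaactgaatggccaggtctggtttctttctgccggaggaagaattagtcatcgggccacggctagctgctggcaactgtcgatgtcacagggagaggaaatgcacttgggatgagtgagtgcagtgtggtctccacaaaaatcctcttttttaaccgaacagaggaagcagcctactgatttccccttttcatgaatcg
Fos −36.2 kb, chr12:85437674-85437873: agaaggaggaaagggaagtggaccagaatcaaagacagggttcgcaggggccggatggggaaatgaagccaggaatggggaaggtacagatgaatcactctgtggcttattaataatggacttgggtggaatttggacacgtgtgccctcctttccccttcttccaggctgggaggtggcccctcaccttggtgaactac
Fos +45.9 kb, chr12:85519659-85519858: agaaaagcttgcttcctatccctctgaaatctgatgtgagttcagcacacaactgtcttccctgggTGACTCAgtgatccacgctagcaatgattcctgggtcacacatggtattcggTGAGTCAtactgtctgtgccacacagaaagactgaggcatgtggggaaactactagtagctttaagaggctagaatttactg
Fosl2 −100.5 kb, chr5:32035888-32036087: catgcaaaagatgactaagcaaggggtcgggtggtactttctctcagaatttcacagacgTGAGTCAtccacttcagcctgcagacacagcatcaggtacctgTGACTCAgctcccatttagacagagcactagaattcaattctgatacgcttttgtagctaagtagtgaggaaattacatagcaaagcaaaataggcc
Batf3 +25.5 kb, chr1:191123804-191124003: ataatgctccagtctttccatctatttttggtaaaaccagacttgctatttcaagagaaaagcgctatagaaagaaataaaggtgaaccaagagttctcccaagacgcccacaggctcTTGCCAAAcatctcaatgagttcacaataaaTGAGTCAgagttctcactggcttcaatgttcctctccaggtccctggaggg
Atf3 −47.4 kb, chr1:191230690-191230889: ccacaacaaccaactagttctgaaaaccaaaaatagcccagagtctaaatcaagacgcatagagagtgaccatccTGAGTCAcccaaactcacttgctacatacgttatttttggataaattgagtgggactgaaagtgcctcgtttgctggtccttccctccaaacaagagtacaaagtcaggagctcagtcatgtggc

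Both Fosl2 and Fos +45.9 kb held 2 AP-1 sites, and Batf3 and Atf3 −47.4 kb held 1 each. The windows at Junb, Jun and Fos −36.2 kb held none of these sites. The Jund peak had no AP-1 site but had the CRE-type site, 79 bp to the left of the peak centre. It also held a C/EBP site (TTGCATAA, minus strand) 22 bp to the right of the centre, outside the bases shown. In the Junb window an uninterrupted run of tg repeats took up 28 bases. By list, 3 of 7 control peaks and 3 of 6 IL-4 peaks at the family held an AP-1 site. The shares among all JUNB peaks were 47.7% and 43.0%, and both lay within the intervals of the members, 15.8 to 75.0% and 18.8 to 81.2%. A CRE-type site was rarer, with 0.457% of all JUNB control peaks holding one. In the Batf3 window the C/EBP site and the AP-1 site were centred 22 bp and 52 bp to the right of the peak centre.

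JUNB had 13 peaks at the 10 genes, 7 in control and 6 after IL-4. A single peak was named for Junb itself, and it was present in control alone. It lay 3029 bp past the TSS, downstream of the RefSeq gene (chr8:84975633-84975806, GRCm38), on a B3A SINE repeat, and the deposited annotation calls the place intergenic, although GENCODE extends Junb over it without an exon there. Its score was 4.86, which placed it within the top 83.1% of the control list, that is near the low end. No unit is given for this score. No C/EBPα or IRF8 peak of either condition overlapped this peak.

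The other JUNB peaks fell at Jun, Jund, Fos, Fosl2, Batf3 and Atf3. No JUNB peak of either condition was named for Fosb, Fosl1 or Batf. JUNB peaks were thus named for 6 of 10 members in control and 5 of 10 after IL-4, compared with 18.2% and 12.4% of the 14930 gene names that occur in any of the 6 lists. Within 25 kb of a member's TSS, whatever the gene name, JUNB had 3 peaks in control, at Junb and Jund. After IL-4 it had 1 there, at Atf3. The part of gene spacing in the shares of named genes was not tested.

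A kept peak is a control peak that overlapped an IL-4 peak of the same factor by at least 1 bp, a lost peak had no such partner, and a gained peak was an IL-4 peak without a partner in control. Of the 7 control JUNB peaks at the family, 4 were kept (57.1%, 95% Wilson interval 25 to 84.2, which covers counting error alone). The 3 others were lost, those at Junb, Jund and Fos +45.9 kb. Among all JUNB control peaks 64.2% were lost. Of the 6 IL-4 peaks, 2 were gained, at Fosl2 and at Atf3 −14.7 kb, where 39.2% of all JUNB IL-4 peaks were gained. With so few member peaks, the counting interval of the kept share includes the 35.8% of all JUNB control peaks that were kept.

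The strongest JUNB peak of the family in control was at Atf3, a stress-induced repressor and activator. It lay at −47.4 kb from the TSS, scored 23.35 in control (top 4.14% of its list) and 6.23 after IL-4. The IL-4 score was 0.267 times the control score, the lowest ratio among the 4 kept JUNB peaks. C/EBPα at the same region scored 46.14 in control and 49.25 after IL-4, whereas IRF8 scored 66.2 and 58.14. JUNB thus had a lower score there while the other factors' scores stayed within 1.5-fold, and 47.9% of all paired JUNB peaks were lower by at least 1.5-fold.

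At Batf3, whose product drives the development of cross-presenting dendritic cells, JUNB scored 7.77 in control and 12.01 after IL-4 at 25.5 kb past the TSS. C/EBPα at this region scored 52.01 and 100.58, and IRF8 scored 10.21 and 32.87. All 3 factors were higher after IL-4 by at least 1.5-fold. Of the 993 regions in the genome that carried peaks of all 3 factors in both conditions, 7 did so (0.705%). Of the 3 such regions at the family, Batf3 was the one, and 105 of the 993 had all 3 scores higher by any amount (10.6%) compared with 2 of these 3.

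The other region with all 3 scores higher was at Jun, which encodes the best known partner of FOS. Its JUNB peak lay at −53.9 kb, within the GENCODE gene Junos, and scored 9.23 in control and 10.24 after IL-4. Scores in the JUNB IL-4 list were lower in general, with a median of 6.21 compared with 7.88 in control. C/EBPα scored 5.35 and 10.88 there, and IRF8 scored 36.75 and 59.01.

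At Fos, the classical immediate early gene, the JUNB peak at −36.2 kb scored 8.65 in control and 4.22 after IL-4. The IRF8 peak over it scored 63.96 and 84.67, and a C/EBPα peak of score 8.96 was present after IL-4 alone. The lost JUNB peak 45.9 kb past the Fos TSS scored 8.0, over an IRF8 peak of 11.84 in control and 9.56 after IL-4. The lost Jund peak scored 9.91 and lay 1079 bp past the RefSeq start, in the deposited annotation's 5′ UTR of Jund, a gene without introns. GENCODE, in contrast, has no gene over this peak. No C/EBPα or IRF8 peak overlapped it in either condition.

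The gained peaks had low scores. The one named for Fosl2, which encodes FRA-2, scored 4.22 and lay at −100.5 kb in an intron of Babam2, with no other factor over it. The one at Atf3 −14.7 kb scored 2.8, in the lowest part of the list (top 95.6%). It overlapped an IRF8 peak that scored 198.9 in control and 247.67 after IL-4, the highest score of the IRF8 peaks at the family in either condition. Over the 4 kept JUNB peaks the median log2 ratio of the IL-4 to the control score was −0.44, with 2 higher and 2 lower, and over all 1406 paired JUNB peaks it was −0.54. Of all these JUNB pairs 26.4% were higher. With scores divided by the median of their own list, the value at the family was −0.10.

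**Figure D1:**
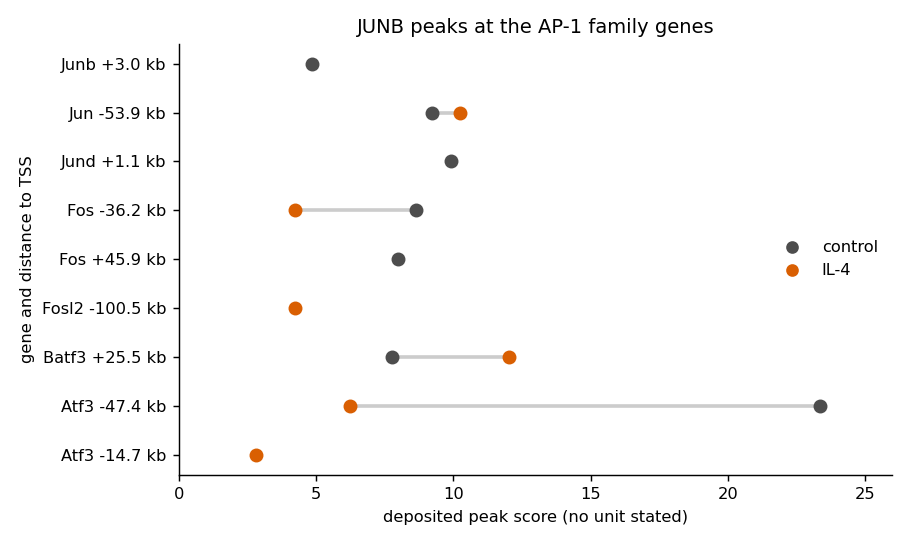
Deposited peak score (x axis, no unit stated) of each JUNB peak at the AP-1 family genes, by gene and distance to the TSS, in control (grey) and after IL-4 (orange). Lines join kept peaks. Atf3 −47.4 kb moved from 23.35 to 6.23 and Batf3 from 7.77 to 12.01, and Junb, Jund and Fos +45.9 kb had a control peak alone.

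C/EBPα, a myeloid lineage factor, had 46 peaks at the family in control and 53 after IL-4. IRF8, an interferon regulatory factor of the same lineage, had 71 and 77. Each was named for 9 of 10 members in either condition. In control C/EBPα had no peak at Jund and IRF8 none at Fosl1, and after IL-4 both lacked Fosl1 alone. Among all gene names, C/EBPα peaks occurred at 62.5% in control and 62.4% after IL-4, and IRF8 peaks at 81.5% and 89.1%.

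**Figure D2:**
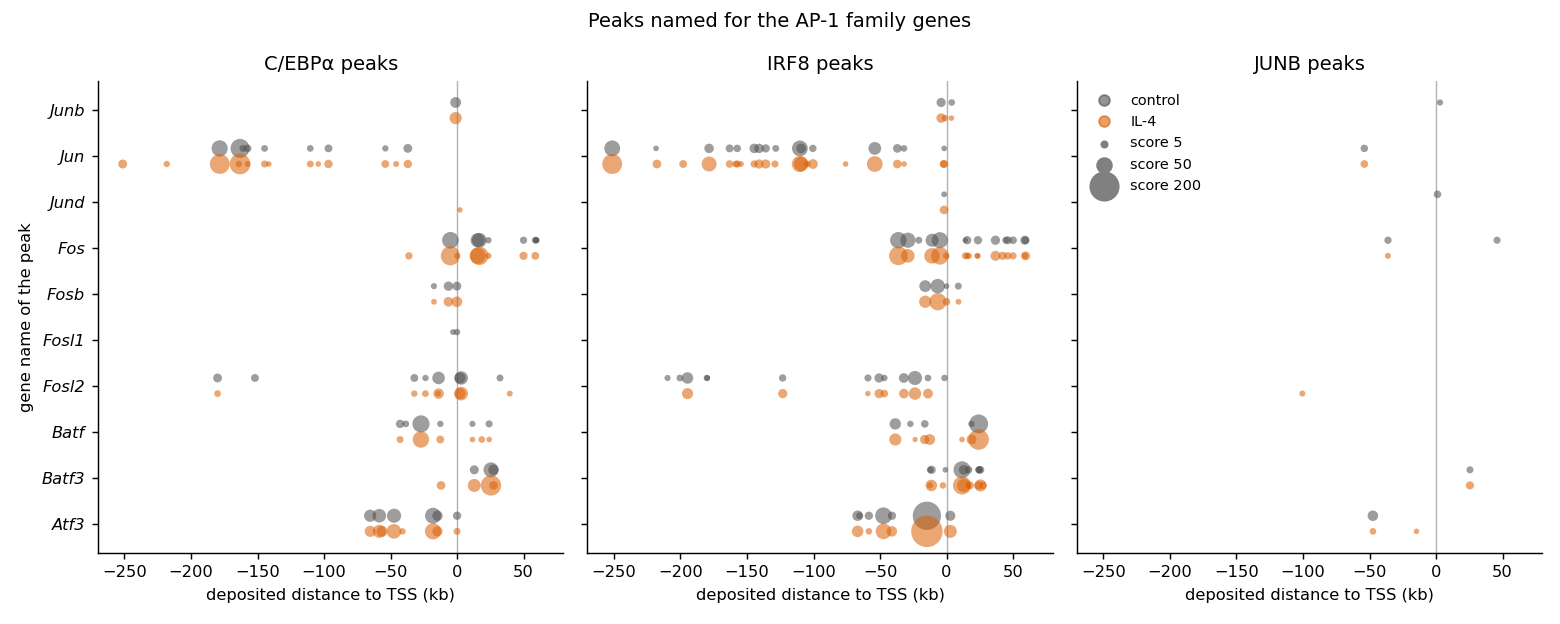
Distance to the TSS (x axis, kb) of the peaks of C/EBPα, IRF8 and JUNB at each AP-1 family gene, in control (grey) and after IL-4 (orange). Point area grows with the deposited score. Jun carries peaks over more than 200 kb upstream, whereas the peaks named for Junb lie within 5 kb of its TSS.

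Of the control C/EBPα peaks at the family, 38 of 46 were kept (82.6%, interval 69.3 to 90.9) and 8 were lost, beside 21.4% lost among all C/EBPα control peaks. Of the IL-4 peaks 15 of 53 were gained, where the share of all C/EBPα IL-4 peaks was 22.0%. For IRF8, 57 of 71 were kept (80.3%, interval 69.6 to 87.9) and 14 were lost, beside 21.4% of all IRF8 control peaks. The 20 gained IRF8 peaks among 77 compare with 30.4% of all IRF8 IL-4 peaks. The intervals of the kept shares covered the 78.6% that was found for all peaks of each factor.

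Scores were compared over peaks paired one to one, taking at least 1.5-fold as the mark of a higher or lower score. For C/EBPα 8 of 38 pairs were higher by this mark, where the share of all pairs was 17.7%, and 9 were lower, where it was 17.8%. For IRF8 20 of 57 pairs were higher, beside 23.6% of all IRF8 pairs, and 9 were lower, beside 17.5%. For JUNB 1 of 4 pairs was higher, beside 9.60% of all JUNB pairs, and 2 were lower, beside 47.9%. By any amount, 21 of 38 C/EBPα pairs and 36 of 57 IRF8 pairs were higher, beside 49.7% and 55.4% of all pairs. At the family the median log2 ratio was 0.07 for C/EBPα (SD between peaks 0.66) and 0.25 for IRF8 (SD 0.97), and over all pairs it was −0.0038 and 0.08. The IRF8 value was 0.52 over the pairs within 25 kb of a member's TSS, whatever the gene name. A value for IRF8 pairs within 25 kb of any TSS was not computed, so 0.52 has no matching value over all genes. The IRF8 IL-4 list was also longer than its control list, and the read depth of the libraries is not given, so depth and IL-4 cannot be told apart.

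**Figure D3:**
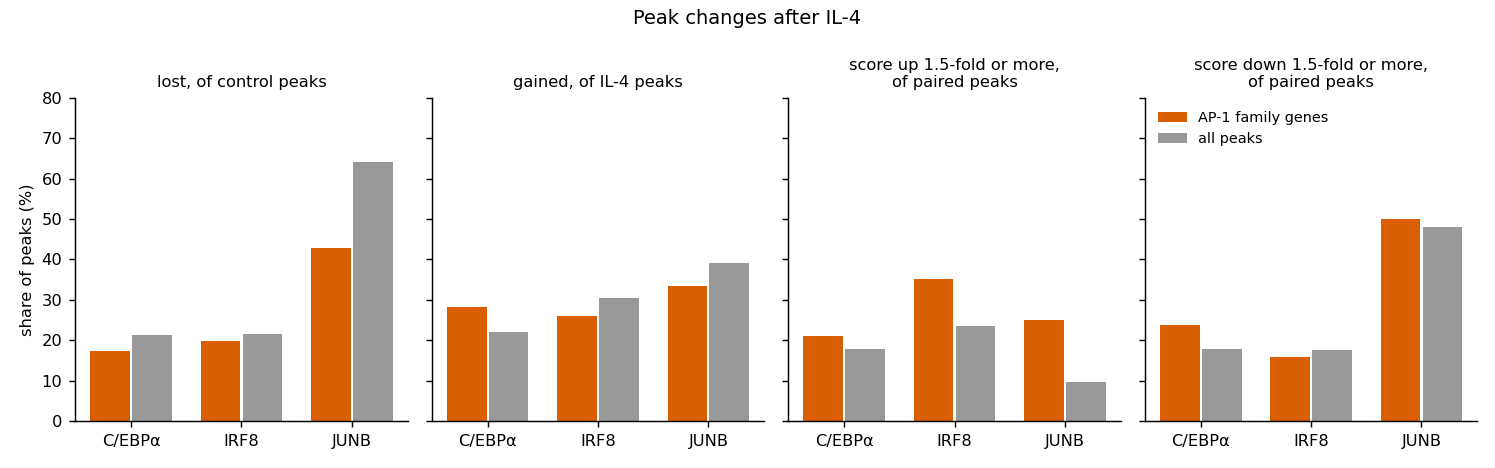
Share of peaks (y axis, %) that were lost, gained, or paired with a score higher or lower by at least 1.5-fold, for AP-1 family genes (orange) and all peaks (grey) of each factor. Bars are single values without replicates. For JUNB the family bars rest on 7, 6, 4 and 4 peaks from left to right.

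Among the JUN genes, Junb had a strong C/EBPα peak at −1.0 kb, with 24.85 in control and 32.94 after IL-4. IRF8 was absent from it in control and had a peak of 5.68 after IL-4 at −1191 bp. A further IRF8 peak at −4.0 kb scored 16.71 and 18.3. At the end of the gene an IRF8 peak of 6.03 at +3897 bp was lost and a separate one of 2.92 at +3650 bp was gained. Scores of different factors share no stated scale, so positions in their own control lists are given. The C/EBPα peak at −1.0 kb was within the top 23.9%, the IRF8 peak at −4.0 kb within the top 33.8% and the JUNB peak within the top 83.1%.

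Jun held more peaks than the other members. C/EBPα had 9 in control and 14 after IL-4, of which 6 were gained and 1 was lost of the control set. IRF8 had 16 and 22, with 8 gained and 2 lost. Over all IL-4 peaks 22.0% of C/EBPα and 30.4% of IRF8 were gained. Over all control peaks 21.4% of either factor were lost. At least as many IRF8 peaks as at Jun were found for 1.04% of gene names in control and 0.388% after IL-4. Peaks are named by the nearest TSS, however far. Within 25 kb of the Jun TSS IRF8 had 1 peak in control and 2 after IL-4. Of the IRF8 peaks at the family 25.4% and 23.4% lay beyond 100 kb, beside 13.4% and 13.1% of all IRF8 peaks. The part of gene spacing in the count at Jun was not tested. No C/EBPα peak lay within 25 kb of the Jun TSS, and the nearest was at −37.0 kb. The strongest C/EBPα peak of the family was at −163.1 kb, at 87.89 and 104.29, and Jun had another at −178.4 kb with 62.29 and 95.02. IRF8 at the latter scored 17.92 in control and 52.25 after IL-4. Near the TSS an IRF8 peak at −1.8 kb scored 3.17 and 11.59, and another of 9.2 at −2363 bp was gained.

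Jund, which is transcribed more constantly than its relatives, had few peaks. IRF8 at −1.8 kb scored 3.71 in control and 14.47 after IL-4, a ratio of 3.90 and the largest of the 99 paired peaks at the family. The control score was within the top 91.7% of its list, near the low end. So were the control scores of the IRF8 pairs at Jun −1.8 kb (top 96.5%), the Fosb promoter (top 96.9%) and Fos +14.2 kb (top 99.2%). C/EBPα had a peak of 2.54 in the exon after IL-4 alone, within the top 99.4% of its list, which is the weak end.

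Among the FOS genes, Fos had strong C/EBPα peaks on both sides. The one at −5.0 kb scored 65.57 in control and 88.33 after IL-4, with IRF8 at 61.9 and 73.79 over it. Downstream, C/EBPα scored 46.29 and 61.47 at +15.5 kb, and 49.72 and 82.17 at +16.8 kb. Of 6 paired C/EBPα peaks at Fos, 5 were higher after IL-4, and the other, at +23.6 kb, scored 5.62 and 4.71. Of 12 paired IRF8 peaks 6 were higher. The shares over all pairs were 49.7% for C/EBPα and 55.4% for IRF8. The IRF8 pairs that differed by at least 1.5-fold all lay downstream of the gene, where 1 was higher, with 2.52 and 8.15 at +14.2 kb, and 3 were lower. The latter moved from 12.86 to 3.79 at +15.5 kb, from 12.8 to 3.29 at +23.6 kb and from 15.36 to 5.47 at +58.9 kb. In the promoter an IRF8 peak of 6.22 at −177 bp and in the first exon a C/EBPα peak of 4.14 at +184 bp were present after IL-4 alone.

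Fosb, a close relative of Fos, was the member with both factors at its promoter in both conditions. C/EBPα scored 15.11 in control and 24.05 after IL-4, and IRF8 scored 3.07 and 9.94. An IRF8 peak at −6.6 kb was stronger than the IRF8 promoter peak, at 49.17 and 70.58. Fosb, with 3 C/EBPα and 4 IRF8 peaks in each condition, had no lost or gained peak of either factor. Over all control peaks 21.4% of either factor were lost, and over all IL-4 peaks 22.0% and 30.4% were gained. Fosl1, which encodes FRA-1, had C/EBPα peaks in control alone, at −3019 bp with 3.98 and at the promoter (−65 bp) with 5.44.

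Fosl2 was the member with the most lost IRF8 peaks, 5 of 13, and none was gained. Over all IRF8 peaks 21.4% of control peaks were lost and 30.4% of IL-4 peaks were gained. The interval of the kept share at Fosl2, 35.5 to 82.3%, covered the 78.6% of all IRF8 control peaks. Of the lost peaks, 4 lay at −1.5 kb or in an intron of Babam2 between −179.9 and −209.7 kb. Their scores were 3.42 to 5.81, and the other lost peak, also in Babam2, scored 6.85. C/EBPα in the first intron of Fosl2 scored 41.52 and 43.15 at +3.1 kb, and 27.26 and 26.86 at +2.2 kb. At −13.9 kb the factors went opposite ways, with C/EBPα at 35.43 in control and 22.99 after IL-4 and IRF8 at 6.63 and 19.86.

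Batf, a partner of IRF factors in lymphocytes, had an IRF8 peak of 86.37 in control and 102.5 after IL-4 at +24.1 kb. A gained IRF8 peak of 24.64 at −12.6 kb had the highest score of the 20 gained at the family. The C/EBPα peak at the same place scored 5.4 and 10.88. IRF8 in the second intron (+18.8 kb) scored 5.4 and 20.34, with a gained C/EBPα peak of 6.27 beside it. All 4 paired IRF8 peaks at Batf were higher after IL-4, whereas 4 of 5 paired C/EBPα peaks were lower. Over all pairs 55.4% of IRF8 and 49.7% of C/EBPα were higher, and the difference at Batf was not tested.

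Batf3 and Atf3 lie 84.9 kb apart on chromosome 1 and point towards each other. Batf3 had 3 C/EBPα peaks in control and 4 after IL-4, and 9 and 10 IRF8 peaks. At +12.9 kb C/EBPα scored 15.78 and 37.72, and IRF8 scored 20.04 and 41.52. At −12.0 kb a C/EBPα peak of 14.23 was gained, and IRF8 beside it at −11.3 kb scored 12.57 and 29.44. The median log2 ratio was 0.95 over the 3 C/EBPα pairs and 0.99 over the 7 IRF8 pairs. Of these 2 and 5 pairs were higher, beside 49.7% of all C/EBPα and 55.4% of all IRF8 pairs. C/EBPα at +27.4 kb was lower, with 23.3 in control and 14.38 after IL-4. IRF8 was lower at +16.6 kb, with 9.16 and 2.48, and at −12.3 kb, with 6.77 and 5.61. The IRF8 promoter peak of Batf3 (−885 bp, 3.18) was lost.

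At Atf3, the IRF8 peak at −14.8 kb was within the top 0.541% of the control list and the top 0.152% of the IL-4 list. C/EBPα there scored 22.55 and 21.7. A C/EBPα peak of 25.88 at −56.4 kb was gained and had the highest score of the 15 gained at the family. The promoter C/EBPα peak scored 12.77 and 7.57. The paired C/EBPα peaks upstream of the deposited Atf3 TSS differed less than 1.5-fold, with 60.36 and 62.52 at −18.1 kb and 42.27 and 38.85 at −58.5 kb. GENCODE extends Atf3 over the C/EBPα peaks at −14.7 and −18.1 kb.

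**Figure D4:**
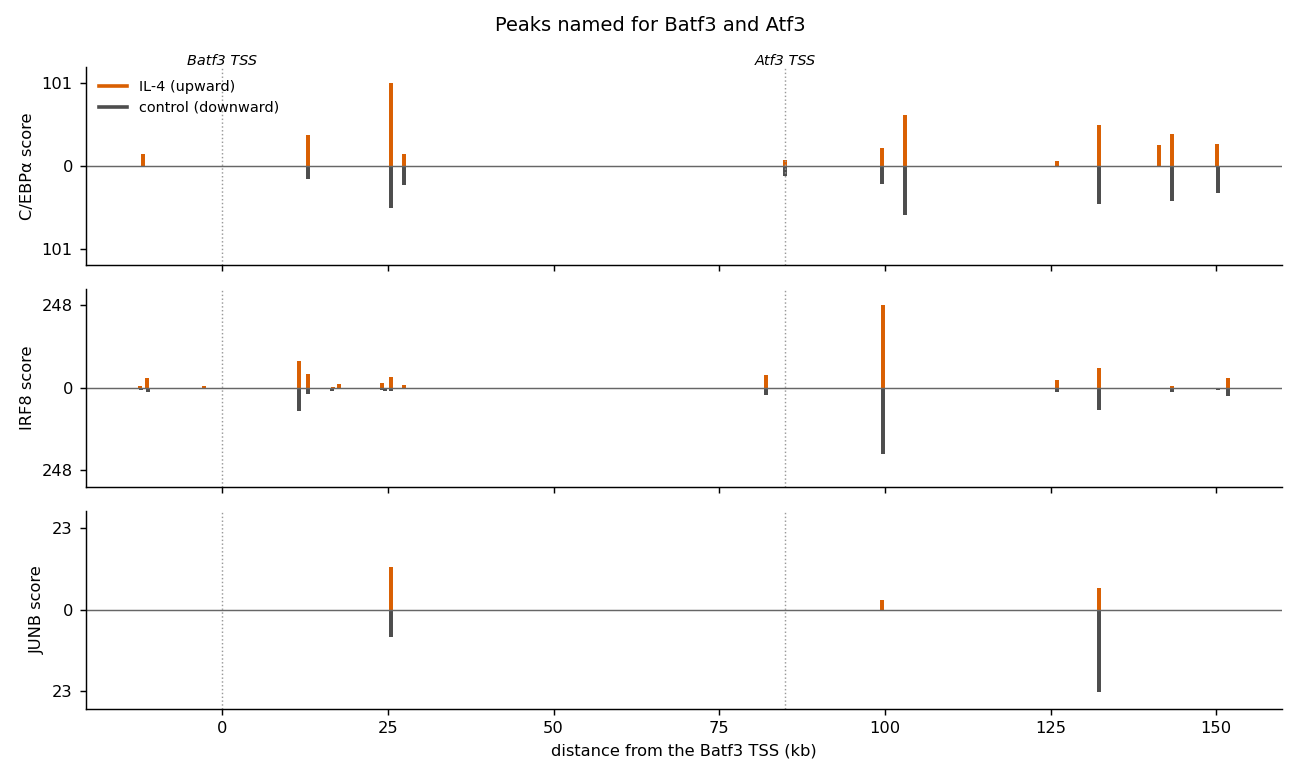
Deposited peak scores at Batf3 and Atf3 against the distance from the Batf3 TSS (x axis, kb), upward for IL-4 (orange) and downward for control (grey), with 1 panel per factor. At 25.5 kb all 3 factors have taller IL-4 bars, and at the JUNB peak near Atf3 (23.35 in control) the JUNB IL-4 bar is shorter.

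Sequences of 4 further peaks are given because the results above turn on them. They were chosen after their values were seen. The windows and the marks are as before, and C/EBP sites occur in the Jun window alone.
Junb −1.0 kb, C/EBPα, chr8:84979706-84979905: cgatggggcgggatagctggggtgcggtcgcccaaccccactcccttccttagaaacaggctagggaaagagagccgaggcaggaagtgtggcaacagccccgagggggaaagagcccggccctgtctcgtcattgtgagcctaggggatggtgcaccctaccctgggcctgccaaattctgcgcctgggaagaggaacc
Jun −163.1 kb, C/EBPα, chr4:95215287-95215486: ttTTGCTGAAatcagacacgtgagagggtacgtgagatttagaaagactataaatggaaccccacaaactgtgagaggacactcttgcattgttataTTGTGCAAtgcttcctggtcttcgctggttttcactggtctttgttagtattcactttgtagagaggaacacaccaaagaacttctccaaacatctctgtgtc
Fos −5.0 kb, C/EBPα, chr12:85468756-85468955: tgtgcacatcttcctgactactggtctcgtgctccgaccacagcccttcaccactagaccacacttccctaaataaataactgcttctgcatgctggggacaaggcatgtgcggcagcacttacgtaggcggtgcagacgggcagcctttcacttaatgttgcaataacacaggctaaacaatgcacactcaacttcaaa
Atf3 −14.8 kb, IRF8, chr1:191197994-191198193: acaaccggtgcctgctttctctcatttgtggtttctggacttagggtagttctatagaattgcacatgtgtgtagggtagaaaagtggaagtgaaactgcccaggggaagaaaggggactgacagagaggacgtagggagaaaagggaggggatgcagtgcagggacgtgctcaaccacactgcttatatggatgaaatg
A STAT6-type site is TTC, then 3 or 4 bases, then GAA, which STAT6, the factor activated by IL-4, can bind. The windows of Junb C/EBPα and Atf3 IRF8 held one each. So did the JUNB windows of the lost peak at Junb and of the kept peak at Batf3 +25.5 kb. Of the JUNB peaks at the family, 2 of 7 in control and 2 of 6 after IL-4 held one. These are 28.6% (interval 8.2 to 64.1) and 33.3% (interval 9.7 to 70.0), where all JUNB peaks had 12.2% and 18.7%. Of the IRF8 peaks at the family 8 of 71 in control and 16 of 77 after IL-4 held one (11.3% and 20.8%, where all IRF8 peaks had 12.7% and 15.7%). Among the 20 gained IRF8 peaks 6 did (30.0%, interval 14.5 to 51.9), and among all gained IRF8 peaks 19.2%. None of the 14 lost IRF8 peaks did, which allows a share of up to 21.4%, and all lost IRF8 peaks had 9.41%. For C/EBPα it was 3 of 15 gained (20.0%) and 0 of 8 lost (up to 37.5%), beside 29.2% and 8.40% of all such peaks. The intervals of these shares covered the shares of all peaks. Among kept C/EBPα peaks it was 8 of 38 in control (21.1%, interval 11.1 to 36.3) and 10 of 38 after IL-4 (26.3%, interval 15.0 to 42.0), beside 14.1% and 14.3% of all kept C/EBPα peaks. The latter interval lay just above the share of all kept C/EBPα peaks, whereas the control interval covered it. Both counts are of kept peaks at overlapping places, with windows centred on the control or the IL-4 peak, so they are not separate results. No other interval by factor, condition and status missed its share of all peaks. Among kept IRF8 peaks it was 8 of 57 and 10 of 57 (14.0% and 17.5%), beside 13.7% and 14.2%.

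**Figure D5:**
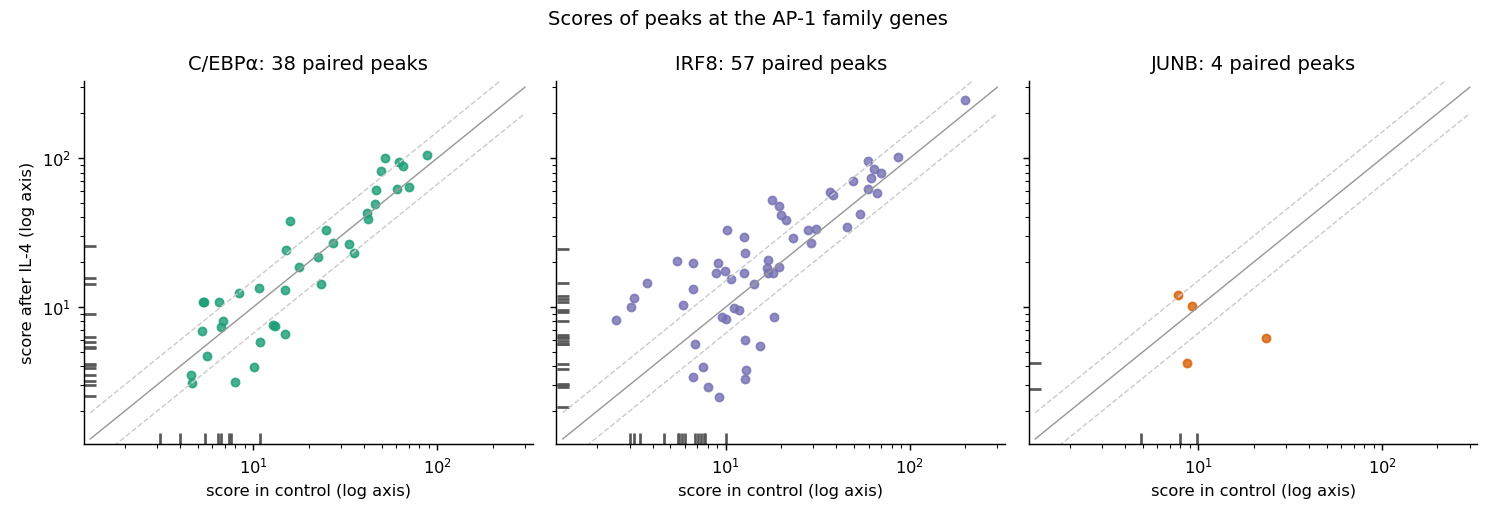
Control score (x, log axis) against IL-4 score (y, log axis) of paired peaks at the AP-1 family genes, with 1 panel per factor. The solid line marks equal scores and the dashed lines 1.5-fold. Ticks along the axes are lost (x axis) and gained (y axis) peaks. IRF8 pairs lie above the upper dashed line 20 times and below the lower one 9 times.

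Peaks at the family were mostly intergenic. The deposited annotation gave this for 38 of 46 C/EBPα, 59 of 71 IRF8 and 6 of 7 JUNB control peaks (82.6%, 83.1% and 85.7%), where all peaks had 43.0%, 43.0% and 49.7%. After IL-4 the shares were 83.0%, 88.3% and 83.3%, where all peaks had 43.0%, 42.0% and 50.6%. The member genes were short, with a median RefSeq length of 7.83 kb compared with 17.15 kb over all protein-coding genes, and the part of gene length in the intergenic share was not tested. Promoter peaks numbered 3 in control and 2 after IL-4 for C/EBPα (6.52% and 3.77%, beside 6.88% and 7.35% of all C/EBPα peaks). IRF8 had 2 and 2 (2.82% and 2.60%, beside 7.25% and 9.16% of all IRF8 peaks). JUNB had 0 of 7 and 0 of 6, which allows a share of up to 42.9% and 50%, and 2.79% and 2.80% of all JUNB peaks were at promoters. With a promoter taken as 2 kb on either side of the TSS, C/EBPα had 4 promoter peaks in either condition, IRF8 had 5, and JUNB had 1 in control and 0 after IL-4. RefSeq promoter windows, from 250 bases before to 50 bases after the start, were matched for 9 of 10 members. They held no AP-1 site, which allows a share of up to 33.3%, and 5.20% of all windows held one.

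To see which factors met at one place, peaks of the 6 lists were merged where they touched, which gave 114 regions at the family among 60847. In control 89 were occupied, of which 27 had 2 factors and 3 had all 3 (3.37%, and 5.38% of all occupied regions). After IL-4 97 were occupied, of which 28 had 2 factors and 5 had all 3 (5.15%, and 3.08% of all). The regions with all 3 factors in control were those at Jun −53.9 kb, Batf3 +25.5 kb and Atf3 −47.4 kb. After IL-4, Fos −36.2 kb and Atf3 −14.7 kb were added, the former through a C/EBPα peak of 8.96 and the latter through a JUNB peak of 2.8. Both therefore rest on a peak of low to middle score.

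JUNB at the family overlapped a C/EBPα peak in 3 of 7 cases in control and 5 of 6 after IL-4, beside 72.3% and 73.4% of all JUNB peaks. It overlapped IRF8 in 5 of 7 and 5 of 6 cases, beside 80.8% and 82.6%. IRF8 peaks at the family carried C/EBPα in 29 of 71 cases in control and 34 of 77 after IL-4 (40.8% and 44.2%), and all IRF8 peaks in 37.9% and 35.3%.

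A further 10 genes of leucine zipper proteins outside the AP-1 members (Batf2, Jdp2, Atf2, Atf4, Atf7, Maf, Maff, Mafg, Mafk and Nfe2l2) had 9 JUNB peaks in control and 5 after IL-4. Of these 7 were lost, 2 kept and 3 gained, beside 64.2% of all JUNB control peaks lost and 39.2% of all JUNB IL-4 peaks gained. Maf, a macrophage differentiation factor, had 6 and 3 JUNB peaks, and Nfe2l2, which governs the oxidative stress response, had 3 and 1. Jdp2, an AP-1 repressor that lies between Fos and Batf, had 1 after IL-4 alone. C/EBPα at these genes kept 44 of 50 control peaks, and 10 of 54 IL-4 peaks were gained. IRF8 kept 49 of 60, and 18 of 67 were gained. Among all control peaks of each factor 78.6% were kept. The gained shares were 22.0% of all C/EBPα and 30.4% of all IRF8 IL-4 peaks.

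The kinases and serum response factors that act on AP-1 genes (11 genes: Mapk3, Mapk8, Mapk9, Mapk14, Elk1, Elk3, Elk4, Srf, Mef2a, Mef2c and Mef2d) had 8 JUNB peaks in control and 6 after IL-4, with 5 kept, 3 lost and 1 gained. Of these Mef2c had 5 and 3, and Elk3 had 2 and 2. C/EBPα kept 36 of 50 control peaks there, and 5 of 42 IL-4 peaks were gained. IRF8 kept 56 of 77, and 21 of 76 were gained. Among all control peaks 35.8% of JUNB and 78.6% of C/EBPα and of IRF8 were kept. Of all IL-4 peaks 39.2% of JUNB, 22.0% of C/EBPα and 30.4% of IRF8 were gained. The median log2 score ratio of these genes was −0.08 for C/EBPα and −0.02 for IRF8, compared with 0.07 and 0.25 at the AP-1 genes. At the further leucine zipper genes it was 0.03 and −0.0005, and over all pairs −0.0038 and 0.08.

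The other precipitated factors also had peaks at their own genes. Cebpa had 4 C/EBPα peaks in control and 5 after IL-4, with all 4 kept. Irf8 had 9 and 10 IRF8 peaks, with 7 kept. Among all control peaks of each of these factors 78.6% were kept. The JUNB lists were several times shorter than those of the other factors, with 3940 and 2325 peaks, against at least 24486 per list for C/EBPα and 37525 for IRF8. Counts are therefore not comparable between factors.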

How the data were processed

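ChIP-seq was made from wild-type BMDMs, with 1 control and 1 IL-4 sample for each of C/EBPα, IRF8 and JUNB. According to the study's methods and the submitters' processing notes, the authors aligned reads to mm10 with BWA 0.7.10, used SAMtools 0.1.19, called peaks per sample with MACS2 2.0.10 at a q-value limit of 0.01, removed blacklisted regions and annotated peaks with HOMER 4.2. The control library and the read depth are not given in the sources used here. Libraries were made with either of a pair of kits, and which was used for which sample is not given.

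The unit of the peak score is not stated in the deposited lists. Between 1 and 48 peaks per list scored under 2, the −log10 of the stated q-value limit, so the score was not read as −log10 q. The deposited distance to the TSS and annotation were used as given. The supplied genome, GRCm38, is the mm10 assembly. Distances recomputed from RefSeq starts were equal for 8 members and differed by a constant 11 bp at Fos and 73 bp at Fosb, and no peak passed a chromosome end.

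The 10 members, the further gene lists and the rule for named peaks (members' JUNB peaks, their highest scores, gained and lost peaks) were chosen with earlier results of these data known. Some genes of the further lists are not reported here and enter none of the lists' counts. Peaks were compared by overlap of at least 1 bp, paired one to one by largest overlap, and merged where they touched. Shares carry Wilson 95% intervals and a count of 0 is given with the share that 3 counts would make. Both cover counting error alone. Motifs were searched in 200 bp around peak centres. Alternatives changed the overlap, the score threshold, the list length, the distance limit, the gene assignment, the score scaling, the peak width, the motif window and the promoter definition. Python 3.11.15, pandas 2.3.3 and scipy 1.17.1 were used. The scripts passed 9 of 9 checks on simulated data.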

Additional observations from a re-analysis of the deposited data

Results flagged for a closer look

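Some values of the factors lay on opposite sides of no change at the AP-1 family genes, without showing a direction for C/EBPα or JUNB. The number of peaks after IL-4 was 1.15 times that in control for C/EBPα and 1.08 times for IRF8, but 0.857 times for JUNB. The median log2 ratio of the IL-4 to the control score over paired peaks was 0.0659 for C/EBPα and 0.253 for IRF8, but −0.443 for JUNB. C/EBPα had 21 of 38 pairs higher, with 8 higher and 9 lower by at least 1.5-fold, and JUNB had 2 of 4 pairs higher and 7 and 6 peaks. Over all pairs 49.7% of C/EBPα and 26.4% of JUNB were higher. With scores divided by the median of their own list, the JUNB value was −0.0992. With 1 sample per factor and condition the difference between the factors was not tested. Over all JUNB pairs of the lists the median was −0.545, and the JUNB IL-4 list was shorter than its control list, with 2325 and 3940 peaks.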

How the results depend on the processing

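Of the 107 values recomputed under the alternatives, 74 stayed within their limits (1.5 times a count, the interval of a share, 1.5 times a median log2 ratio) and 33 moved. A change of sign was counted only for a median ratio of at least 1.5-fold either way. No median at the family reached that mark, so no change of sign could be counted. With scores of 10 or more alone, the peaks at the family numbered 28 in control and 29 after IL-4 for C/EBPα (7 gained), 41 and 46 for IRF8 (9 lost), and 1 and 2 for JUNB (1 lost, 0% kept). An AP-1 site was then in 100% of the control JUNB peaks, which is 1 peak, and regions with all 3 factors numbered 1 and 2. Of the 13 JUNB peaks at the family, 10 scored under 10. Within 25 kb of a member's TSS, whatever the gene name, there were 25 and 28 C/EBPα peaks (92% kept, 5 gained, 2 lost), 36 and 48 IRF8 peaks (5 lost, median log2 ratio 0.52 in place of 0.25), and 3 and 1 JUNB peaks (0% kept, 1 gained). Within 100 kb, IRF8 lost 8 peaks and JUNB gained 1. These limits leave fewer peaks by construction.

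With a promoter limit of 2 kb, C/EBPα had 4 promoter peaks in either condition, IRF8 had 5, and JUNB had 1 in control alone. Dividing scores by each sample's median moved the median log2 ratio of the JUNB pairs from −0.44 to −0.10 and that of the IRF8 pairs from 0.25 to 0.36. Cutting the longer list of a factor to the length of the shorter gave 66.7% of JUNB and 71.8% of IRF8 control peaks kept. No paired analysis was possible because each factor and condition has 1 sample.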

Other observations

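Some peaks near members carry another gene's name. A further JUNB peak, at −7.0 kb from the Junb TSS (chr8:84985615-84985796), was named for Hook2, scored 4.22 and was present in control alone. C/EBPα overlapped it with 14.19 in control and 10.65 after IL-4, and IRF8 beside it, at −7.3 kb, scored 8.97 and 24.02. Within 25 kb of the Fosl1 TSS IRF8 had 1 control and 3 IL-4 peaks, each named for another gene.

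Irf8, outside the family, had 1 JUNB peak at −20.2 kb, with a score of 4.8, which was lost after IL-4.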
